A study of Mus musculus with 6 samples.

Results

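The genes described here encode the calcium pumps of the sarcoplasmic and endoplasmic reticulum (*Atp2a1*, *Atp2a2* and *Atp2a3*, the SERCA family), the calcium pumps of the plasma membrane (*Atp2b1* and *Atp2b4*), the sodium-calcium exchanger (*Slc8a1*) and the small membrane proteins phospholamban (*Pln*) and sarcolipin (*Sln*), which inhibit SERCA. The 8 genes were chosen by symbol, and all 8 were found among the 19079 genes of the deposited comparison. They were measured by RNA sequencing of ventricles from mice at postnatal day 10 (P10), in 4 *Runx1* OE mice and 2 Myh6-CreER controls of strain C57BL/6, all given tamoxifen at P0 and P1. *Runx1* OE mice carried Myh6-CreER together with the Rosa-*Runx1* OE allele, and controls carried Myh6-CreER alone, so that Cre and tamoxifen were shared by both groups. The *Myh6* promoter drives the tamoxifen-inducible Cre in cardiomyocytes, and by the study's account only a portion of cardiomyocytes was induced, while the RNA came from the whole tissue. In such bulk RNA, fewer cells of a type and less RNA per cell cannot be told apart. The mice were littermates, no source used here gives their sex one by one, and the labels speak of ventricles in one place and of left ventricles in another.

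With each heartbeat, calcium enters the cardiomyocyte and releases more calcium from the sarcoplasmic reticulum through the ryanodine receptor. Relaxation requires its removal, mostly by SERCA2 (*Atp2a2*) back into the reticulum and by the exchanger NCX1 (*Slc8a1*) out of the cell. Unphosphorylated phospholamban slows SERCA2, and phosphorylation by protein kinase A or CaMKII relieves this inhibition. In the mouse heart, phospholamban is mainly a ventricular protein and sarcolipin an atrial one. The balance of pump, inhibitor and exchanger changes as the heart matures after birth and in heart failure.

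The targeted gene, *Runx1*, averaged 16622 normalized counts in *Runx1* OE ventricles and 40.2 in controls. Values are the authors' group means, in counts divided by a size factor for each library, and columns of values per library were not used because their names match no sample label. The spread between libraries was instead taken from the deposited geometric mean over the 6 libraries, and the limits between which single libraries must lie came from the group means, the geometric mean and the deposited highest library. By these limits every *Runx1* OE library had at least 5370 normalized counts of *Runx1* and no control more than 63.8. The comparison was tested in 15172 genes that averaged 10 or more normalized counts and had no library at 0, by a gamma model with spread moderated by limma. It called 281 genes at an adjusted p under 0.05, which is 1.85% of genes tested, with 165 higher and 116 lower in *Runx1* OE. *Xist*, which is expressed from the inactive X chromosome of females, averaged 4584 normalized counts in *Runx1* OE ventricles and 8.92 in controls (log2 ratio 9.01, SE 1.57, adjusted p = 0.0287, moderated gamma model). By the limits no control had more than 17.8, while the highest library, from *Runx1* OE, had 7493. For a mean of 4584, most *Runx1* OE libraries had to lie far above both controls, though the lowest may have had 1.93. Sex thus largely coincided with genotype, and its part in the values below was not tested. The p-values rest on 4 and 2 libraries and measure the spread between these libraries only.

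Of the 8 genes, 6 could be tested and 0 were called by the moderated gamma model, against the 1.85% of all genes that were called. On simulated data, this fit called none of the genes given a change somewhat larger than that of *Slc8a1*, so differences of that size can go uncalled. The simulation changed only a small share of genes. In the data some genes of about the simulated size were called, such as *Rcn1* (log2 ratio 0.51, adjusted p = 0.0452, moderated gamma model). At an unadjusted p under 0.05 there were 2 of the 6, *Pln* and *Atp2a3*, both with a lower mean in *Runx1* OE, where 13.0% of all genes tested passed. In 2 of the 6, *Pln* and *Atp2a2*, all *Runx1* OE libraries had to lie below both controls. Such groups that cannot overlap, with *Runx1* OE the lower, made up 6.60% of genes tested. The other 2 genes, *Sln* and *Atp2a1*, had a library at 0 and were not tested.

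**Figure D1:**
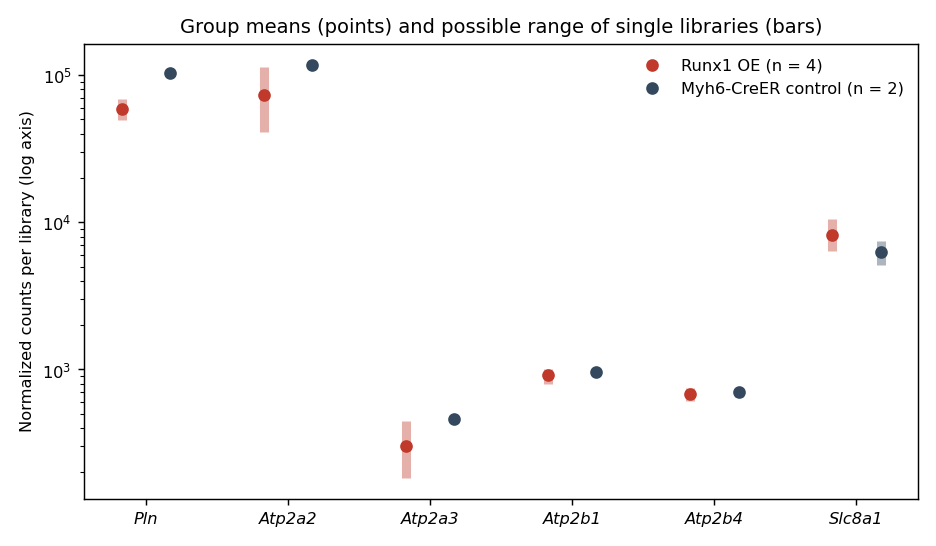
Normalized counts per library on a log axis for the 6 tested genes, with the authors' mean of each group as a point and the range in which its single libraries must lie as a bar; *Runx1* OE (n = 4) stands left of the Myh6-CreER control (n = 2). The bars of the 2 groups do not meet for *Pln* (at most 68560 in *Runx1* OE, at least 100303 in controls) and *Atp2a2* (at most 112661 in *Runx1* OE, at least 115051 in controls).

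*Pln*, which encodes phospholamban, lies on chromosome 10 (GRCm39, 53199622 to 53223512, plus strand). It averaged 58845 normalized counts in *Runx1* OE ventricles and 103894 in controls. The highest library had to be a control, which puts the controls at 107485 and 100303, and each *Runx1* OE library between 49796 and 68560. The groups thus stood well apart, and the libraries within each group lay close together, with a within-group spread of 9.54% before and 15.1% after moderation. The mean in *Runx1* OE was 0.566 times that of controls, a log2 ratio of -0.82 (SE 0.19, 95% confidence interval -1.25 to -0.39). The moderated gamma model gave an adjusted p of 0.0774, which missed the threshold. *Pln* was 385th of the 15172 genes by p-value, and 2.06% of genes tested had a lower log2 ratio. In the annotation used here, exons of *Cep85l* and of a gene model overlap those of *Pln* on the opposite strand. No source used here states that strand was used in counting, and reads of such overlaps cannot then be told apart.

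*Atp2a2*, which encodes SERCA2, the main calcium pump of cardiomyocytes, lies on chromosome 5 (GRCm39, 122591575 to 122640903, minus strand). It averaged 72930 normalized counts in *Runx1* OE ventricles and 116370 in controls. The controls had to be at 117690 and 115051, and the *Runx1* OE libraries between 41076 and 112661. No *Runx1* OE library reached a control, but the *Runx1* OE libraries differed much more among themselves than for *Pln*, with a within-group spread of 28.9% before moderation. The log2 ratio was -0.67 (SE 0.30, 95% confidence interval -1.36 to 0.01), and it did not pass the test (adjusted p = 0.395, moderated gamma model). Exons of *Anapc7* and of 2 gene models overlap it on the opposite strand.

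*Pln* and *Atp2a2* are among the most abundant transcripts of the ventricle. Of the 23 tested genes that averaged 50000 or more normalized counts, *Pln* had the lowest log2 ratio and *Atp2a2* the next, followed by *Myh6* (-0.58), the main myosin heavy chain of the mouse ventricle after birth. The median of the 23 genes was -0.06, and the highest was 0.14. The cut of 50000 was not planned, and these ranks hold only above it. Under it, *Fhl2* (mean 12260) was at -1.12 and *Mybpc3* (mean 20870) at -0.68. The position of both genes against all genes tested is shown in the plot of log2 ratios against mean level. *Pln* counts per *Atp2a2* count were 0.807 in *Runx1* OE and 0.893 in controls, which is 0.904 times as many. The inhibitor and its pump therefore had group means that differed in nearly the same proportion, and the difference between their log2 ratios, -0.15, was below the SE of either gene. It was not tested, since that needs values per library.

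**Figure D2:**
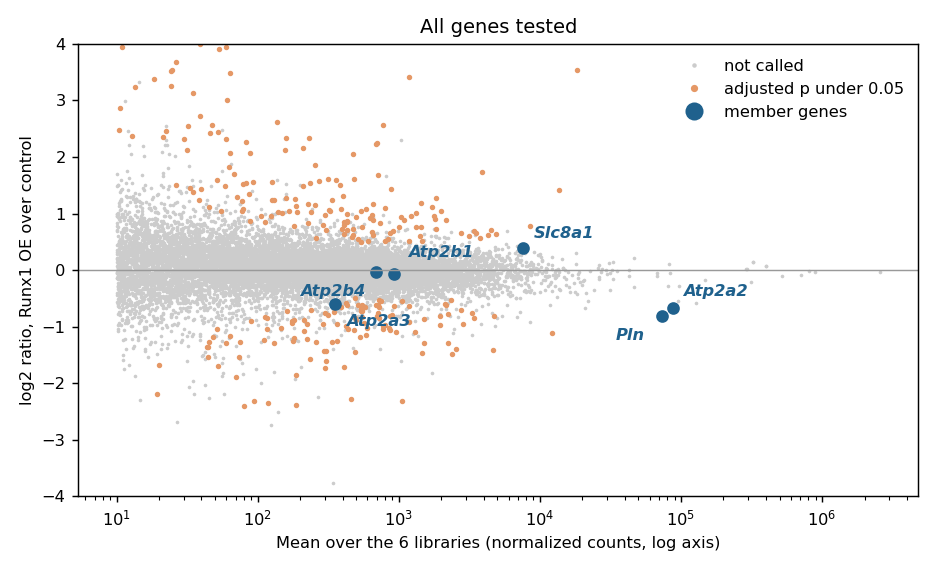
The log2 ratio of *Runx1* OE over control against the mean over the 6 libraries, in normalized counts on a log axis, for the genes tested; orange points have an adjusted p under 0.05, and blue points are the 6 tested pumps, exchanger and phospholamban, while 9 genes lie outside the plotted range of log2 ratios. *Pln* (-0.82) and *Atp2a2* (-0.67) lie at the high end of abundance and below the other genes that averaged 50000 or more, and neither is called.

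*Atp2a3*, which encodes SERCA3, known from platelets, leukocytes and endothelium, lies on chromosome 11 (GRCm39, 72851990 to 72883870, plus strand). It averaged 301.3 normalized counts in *Runx1* OE ventricles and 457.8 in controls. The controls had to be at 481.9 and 433.6, and the *Runx1* OE libraries between 182.4 and 446, so that the highest *Runx1* OE library may have passed the lower control. The log2 ratio was -0.60 (SE 0.24, 95% confidence interval -1.15 to -0.06), with an adjusted p of 0.332 by the moderated gamma model. Markers of the cell types in which SERCA3 is known did not pass the test in any of 3 lists. The median log2 ratio was -0.13 over 6 of 6 endothelial markers tested, which summed to 17404 normalized counts in *Runx1* OE and 19045 in controls. It was 0.03 over the 7 tested of 8 leukocyte markers, which summed to 1706 in *Runx1* OE and 1610 in controls, and 0.20 over the 4 tested of 6 platelet and megakaryocyte markers, which summed to 163.6 in *Runx1* OE and 159.7 in controls. None of the markers of these lists that the table held had a library at 0. Their part in the value of *Atp2a3* was not tested.

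*Atp2a1*, which encodes SERCA1, the pump of fast skeletal muscle, lies on chromosome 7 (GRCm39, 126045013 to 126063423, minus strand) and was barely detected. It averaged 1.21 normalized counts in *Runx1* OE ventricles and 4.17 in controls. The highest library, at 6.23, had to be a control, which puts the other control at 2.09 and at least 1 *Runx1* OE library at 0. With a mean of 2.19 over the 6 libraries, a difference was not detectable at this depth. The defining skeletal muscle markers were also at or near the floor, since of 15 markers 7 were in the table and only *Ckm* and *Acta1*, which the heart also expresses, passed the filter. *Tnni2*, fast skeletal troponin I, averaged 4.39 in *Runx1* OE and 17.3 in controls. The other markers under the filter did not share this difference. *Tnnt3*, *Actn3* and *Pvalb* had a slightly higher mean in *Runx1* OE than in controls, and *Mylpf* was nearly equal. The part of skeletal muscle markers in the value of *Atp2a1* was not tested.

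Levels of different genes were compared per kilobase of the canonical transcript, a length that may differ from that of the transcripts the authors quantified. On this scale *Atp2a2* had 16433 normalized counts per kilobase in *Runx1* OE and 26221 in controls, *Atp2a3* had 66.6 in *Runx1* OE and 101.1 in controls, and *Atp2a1* was at 0.291 in *Runx1* OE and 1.00 in controls. *Atp2a2* made up 99.6% of the SERCA total per kilobase in *Runx1* OE ventricles and 99.6% in controls, so the make-up of the family was all but the same while its sum was 16500 in *Runx1* OE and 26323 in controls. *Pln* stood close to *Atp2a2*, at 14335 per kilobase in *Runx1* OE and 25309 in controls. In both groups the order was *Atp2a2*, *Pln*, *Slc8a1*, *Atp2b1*, *Atp2a3*, *Atp2b4*, *Sln* and *Atp2a1*. The gaps between *Atp2a2* and *Pln* were smaller than the moderated spread of *Atp2a2* between libraries, 24.2%. The gap between *Atp2a3* and *Atp2b4* (57.5 per kilobase) in *Runx1* OE and that between *Atp2b1* (114.2 per kilobase) and *Atp2a3* in controls were smaller than that of *Atp2a3*, 19.3%.

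*Slc8a1*, which encodes NCX1, the main route of calcium out of the cardiomyocyte, lies on chromosome 17 (GRCm39, 81680534 to 82045891, minus strand). It was the only one of the 6 tested genes with a higher mean in *Runx1* OE, at 8237 normalized counts in *Runx1* OE ventricles and 6322 in controls. The highest library, at 10477, had to be a *Runx1* OE library, and the other 3 averaged 7489. All *Runx1* OE libraries lay between 6385 and 10477 and both controls between 5132 and 7512, so the groups may overlap. The log2 ratio was 0.38 (SE 0.18, 95% confidence interval -0.02 to 0.78), with an adjusted p of 0.414 by the moderated gamma model, and 89.3% of genes tested had a lower log2 ratio. *Slc8a1* counts per *Atp2a2* count were 0.113 in *Runx1* OE and 0.0543 in controls, which is 2.08 times as many. This ratio of exchanger to pump joins 2 means that differed in opposite directions, neither past the threshold, and was not tested itself. Exons of a gene model overlap *Slc8a1* on the opposite strand.

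The plasma membrane pumps PMCA1 (*Atp2b1*) and PMCA4 (*Atp2b4*), which extrude calcium in most cell types, had nearly equal means in both groups. *Atp2b1*, on chromosome 10 (GRCm39, 98750268 to 98862488, plus strand), averaged 913 normalized counts in *Runx1* OE and 954.3 in controls. *Atp2b4*, on chromosome 1 (GRCm39, 133627195 to 133728923, minus strand), averaged 681.9 in *Runx1* OE and 700.2 in controls. Single libraries of *Atp2b1* had to lie between 801.8 and 1010 in *Runx1* OE and between 897.9 and 1010 in controls, and those of *Atp2b4* between 610.1 and 752.7 in *Runx1* OE and between 647.6 and 752.7 in controls. The ranges of the groups lay on top of each other for both genes, and the highest library could belong to either group. The log2 ratios were -0.06 for *Atp2b1* (95% confidence interval -0.32 to 0.19, adjusted p = 0.86) and -0.04 for *Atp2b4* (95% confidence interval -0.29 to 0.21, adjusted p = 0.922) by the moderated gamma model. The sign of *Atp2b4* flips when group means are rescaled to the same total, and the signs of both flip relative to the median cardiomyocyte marker or without the highest library, if that was a control. These were the narrowest intervals of the 6 genes, as the plot of log2 ratios with their intervals shows.

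**Figure D3:**
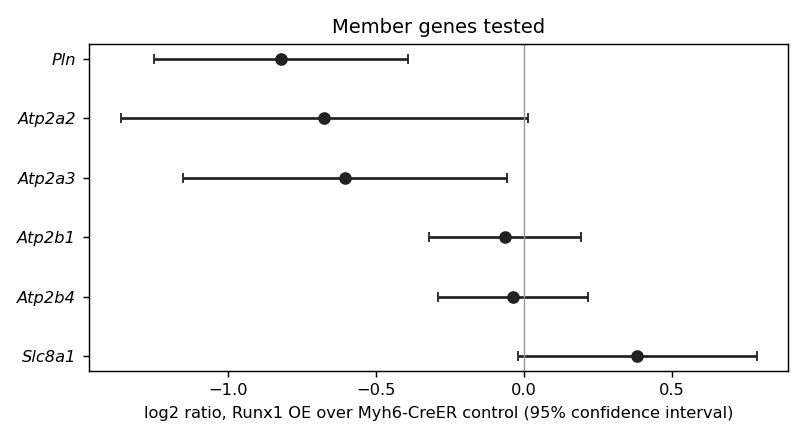
The log2 ratio of *Runx1* OE over Myh6-CreER control for the 6 tested genes, with the 95% confidence interval of the moderated gamma model as bars (n = 4 and n = 2). The intervals of *Pln* (-1.25 to -0.39) and *Atp2a3* (-1.15 to -0.06) do not include 0, and those of the other 4 genes do; no gene passed the adjusted threshold.

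*Sln*, which encodes sarcolipin, lies on chromosome 9 (GRCm39, 53742537 to 53761846, plus strand) and was low. It averaged 22.2 normalized counts in *Runx1* OE ventricles and 2.53 in controls, which is 8.75 times as high. The highest library, at 52.0, had to be *Runx1* OE, and the other 3 *Runx1* OE libraries averaged 12.2, while the 2 controls summed to 5.06. At least 1 library was at 0, in a group that the deposited values do not fix. The highest library thus carried much of the mean, and without it *Runx1* OE averaged 4.82 times the control mean. No test was made, and per kilobase *Sln* was at 16.8 in *Runx1* OE and 1.92 in controls, far below *Pln*.

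Atrial cardiomyocyte markers were given beside *Sln* because the mouse atrium is where sarcolipin is abundant. Of 7 atrial markers, all tested, 5 had a higher mean in *Runx1* OE, the median log2 ratio was 1.51 and the list summed to 2930 normalized counts in *Runx1* OE and 1785 in controls. *Nppa*, atrial natriuretic peptide, averaged 1420 in *Runx1* OE and 287.8 in controls (adjusted p = 0.0681), and *Myl4*, atrial myosin light chain, averaged 252.7 in *Runx1* OE and 88.9 in controls (adjusted p = 0.336). *Myl7*, the other atrial light chain, averaged 73.3 in *Runx1* OE and 21.7 in controls (adjusted p = 0.531), and *Bmp10* 13.2 in *Runx1* OE and 4.08 in controls (adjusted p = 0.308). *Dkk3* averaged 444 in *Runx1* OE and 328 in controls (adjusted p = 0.302, moderated gamma model). *Nr2f2* was nearly equal, at 499 in *Runx1* OE and 505 in controls (adjusted p = 0.969, moderated gamma model). Only *Kcnj3*, an inwardly rectifying potassium channel of the atrium, was called by the moderated gamma model, and it fell (log2 ratio -1.26, SE 0.24, adjusted p = 0.0376). By the study's methods the atria had been taken off before extraction. No atrial marker had a library at 0, and the part of atrial markers in the value of *Sln* was not tested. *Strit1*, which encodes DWORF, a peptide that activates SERCA by displacing phospholamban, was named after its values were seen. It averaged 14.4 normalized counts in *Runx1* OE and 1.02 in controls, just under the filter with a mean of 9.99 over the 6 libraries. Only alternatives with a lower filter tested *Strit1*. With a mean of at least 1, the moderated gamma model called it higher in *Runx1* OE (log2 ratio 3.82, SE 0.47, adjusted p = 0.0135). The controls summed to 2.05 normalized counts, so counting error in the controls is large, which limits this call.

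The cardiomyocyte marker list was set beside *Pln* and *Atp2a2*, since both are expressed mainly in these cells. Of 8 cardiomyocyte markers 7 had a lower mean in *Runx1* OE, with a median log2 ratio of -0.33, and 0 were called, while 3 had an unadjusted p under 0.05, against 13.0% of all genes tested. *Mybpc3*, a thick filament protein, was at -0.68 (adjusted p = 0.258), *Myh6* at -0.58 (adjusted p = 0.601), *Tnnt2* at -0.31 (adjusted p = 0.476) and *Tnni3* at 0.03 (adjusted p = 0.943). The list summed to 353910 normalized counts in *Runx1* OE and 454520 in controls, and none of its genes had a library at 0. Of the 5 ventricular markers, 3 had a higher and 2 a lower mean in *Runx1* OE. Their median log2 ratio was 0.10, with a range from -0.13 (*Myh7*) to 0.63 (*Hey2*). *Myl2*, the ventricular myosin light chain, was at 84374 normalized counts in *Runx1* OE and 78674 in controls. Taken relative to the median cardiomyocyte marker, the log2 ratio of *Pln* was -0.49, that of *Atp2a2* -0.34 and that of *Slc8a1* 0.72, a scaling added after the data were seen and given without a test. The part of the cardiomyocyte share of the tissue in these values was not tested.

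The rest of the calcium handling machinery was described by 3 further lists. Over all genes tested the median log2 ratio was 0.01. Over the 6 tested of the 8 genes above it was -0.33, with 5 of the 6 below 0, or 4 of the 6 with group means rescaled to the same total. Among 18 other pumps and exchangers of calcium (plasma membrane and secretory pathway pumps, potassium-dependent exchangers and mitochondrial uptake), 12 were tested, 0 were called and the median was 0.01. Among 28 regulators of SERCA and phospholamban, 25 were tested, 0 were called and the median was -0.05. *Strit1*, given above, was under the filter and not among the 25. At an unadjusted p under 0.05, 7 of the 25 passed, all lower in *Runx1* OE, against 13.0% of all genes in either direction. The following were named after their values were seen. *Canx*, the chaperone calnexin, averaged 2745 normalized counts in *Runx1* OE and 3850 in controls (adjusted p = 0.077). *Hrc*, a calcium-binding protein of the reticulum that binds SERCA2, averaged 3294 in *Runx1* OE and 5143 in controls (adjusted p = 0.314). *Ppp1r1a*, an inhibitor of the phosphatase that dephosphorylates phospholamban, averaged 43.3 in *Runx1* OE and 78.7 in controls (adjusted p = 0.149), and the thyroid hormone receptor gene *Thrb* averaged 102.5 in *Runx1* OE and 179.8 in controls (adjusted p = 0.291). The rest of the 7 were *Ppp1r3a* (adjusted p = 0.137), *Thra* (adjusted p = 0.284) and *Camk2g* (adjusted p = 0.344). None of the 7 passed the moderated gamma model's threshold.

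Among 26 genes of calcium release and the junction, 24 were tested and the median was -0.01, with 2 called, both higher in *Runx1* OE, against 1.85% of all genes called. At an unadjusted p under 0.05 there were 3 higher and 5 lower of the 24, against 13.0% of all genes. *Casq1*, the skeletal isoform of calsequestrin, which stores calcium in the reticulum, rose to 1689 normalized counts in *Runx1* OE ventricles, against 159.1 in controls (log2 ratio 3.41, SE 0.32, adjusted p = 0.00199). *Stim1*, the calcium sensor of the reticulum that opens store-operated channels, rose to 806.7 in *Runx1* OE, against 357.7 in controls (log2 ratio 1.17, SE 0.15, adjusted p = 0.00879). In both genes every *Runx1* OE library had to lie above both controls. Groups that cannot overlap, in either direction, made up 2033 of the 15172 genes tested. The cardiac counterparts that work beside SERCA2 and phospholamban did not pass. *Casq2*, cardiac calsequestrin, averaged 14302 in *Runx1* OE and 17159 in controls (adjusted p = 0.371), and *Ryr2*, the cardiac release channel, which is also in the cardiomyocyte list, averaged 5926 in *Runx1* OE and 9946 in controls (adjusted p = 0.301). *Cacna1c*, the L-type calcium channel, averaged 2106 in *Runx1* OE and 3389 in controls (adjusted p = 0.182). The values of the lists are shown side by side in the plot of log2 ratios by list.

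**Figure D4:**
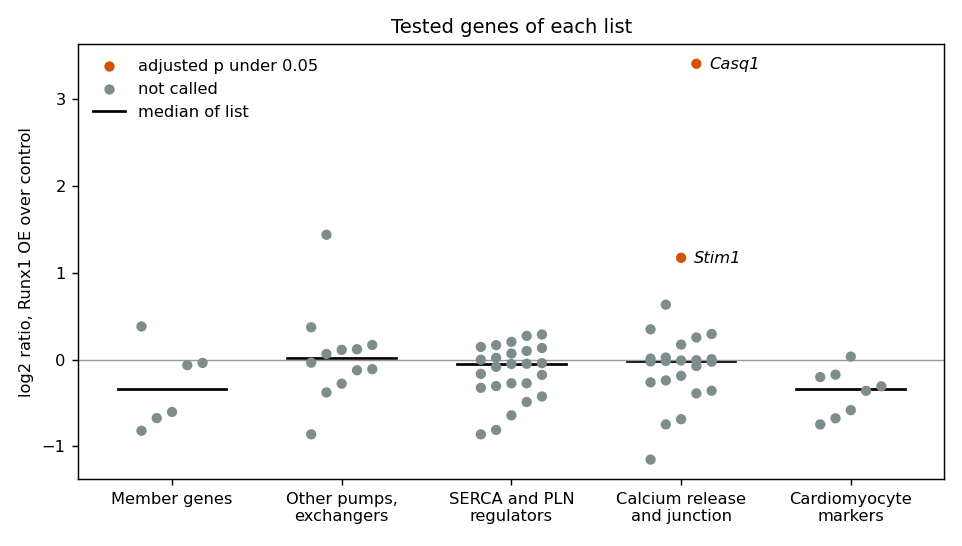
The log2 ratio of *Runx1* OE over control for the tested genes of each list, with the list median as a black line and genes with an adjusted p under 0.05 in orange. *Casq1* (3.41) and *Stim1* (1.17) are the only called genes in these 5 lists. The medians of the pump, exchanger and phospholamban genes (-0.33) and of the cardiomyocyte markers (-0.33) lie below those of the other 3 lists. No pump, exchanger or phospholamban gene lies near its list median, since *Pln*, *Atp2a2* and *Atp2a3* are at -0.60 or lower. *Atp2b1*, *Atp2b4* and *Slc8a1* are at -0.06 or higher.

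The 250 bases before RefSeq gene starts were searched for the core of the RUNX binding motif, written TGTGGT or TGCGGT, on both strands. RefSeq windows (GRCm38.p6) matched 6 of the 8 genes with 7 windows, and each was placed on GRCm39 by exact sequence match. RefSeq starts can differ from the outer ends of the genes given above. The windows of *Pln*, *Atp2b4* and *Atp2a1* and 1 of the 2 windows of *Atp2b1* lie inside those spans. The other window of *Atp2b1* and those of *Atp2a3* and *Slc8a1* overlap them in part. The core was found in 1 of the 7 windows, that of *Atp2a3*, where it lay on the minus strand, 225 bases before the start. Of 32851 windows of the same length, 18.6% held it. A match is a description of letters and not a site, and its absence from the *Pln* window says only that these letters are not there. The 2 windows are shown for *Pln*, the gene with the smallest p, and for *Atp2a3*, which held the match, both on the plus strand from 5′ to 3′, at chr10:53213532-53213781 and chr11:72851745-72851994 (GRCm39), with the motif core, read on the opposite strand, in capitals.
*Pln*: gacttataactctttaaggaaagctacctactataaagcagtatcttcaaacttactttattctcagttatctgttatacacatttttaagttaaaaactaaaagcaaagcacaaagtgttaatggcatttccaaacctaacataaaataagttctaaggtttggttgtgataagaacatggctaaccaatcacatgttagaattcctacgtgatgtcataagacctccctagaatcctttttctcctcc
*Atp2a3*: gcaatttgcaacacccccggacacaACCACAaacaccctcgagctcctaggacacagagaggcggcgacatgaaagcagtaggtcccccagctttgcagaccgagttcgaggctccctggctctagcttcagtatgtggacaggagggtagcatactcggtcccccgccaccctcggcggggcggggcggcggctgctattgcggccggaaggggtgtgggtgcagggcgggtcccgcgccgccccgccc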

How the data were processed

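Oligo(dT) libraries of P10 ventricles (4 *Runx1* OE, 2 Myh6-CreER, grouped by sample title) were sequenced by the authors as paired reads. By the study's methods, reads were aligned with STAR to mm39, Ensembl transcripts were quantified with Partek E/M, and the authors applied median ratio normalization, then DESeq2. HISAT2 and mm9 stand in the submitters' processing notes instead. The deposited group means are a signal (size-factor normalized counts) which sums to 19422828 per library on average (19199067 in *Runx1* OE and 19870350 in controls). Other deposited values used were the highest library and the geometric mean. The table also holds the authors' p-values, adjusted p-values, ratios and fold changes with limits, and these were not used. The 6 columns of values per library were not used, since no label matches their names.

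Group means were scaled to add up to the deposited total, which moved no tested gene by more than 0.755%. A gamma model with a log link was fitted to every gene with a mean of at least 10 and no library at 0, from the group means and the geometric mean, which carry all that its fit needs. The residual deviance over 4 degrees of freedom was moderated toward a trend on the mean (limma 3.58.1, R 4.3.3), which gave 8.79 degrees of freedom for a two-sided Wald test, adjusted by the Benjamini-Hochberg method over all genes tested and called under 0.05. Both this fit and the limits on single libraries were tested on simulated data. The limits always held there, while calls of the fit held clearly more unchanged genes than the threshold states, and small changes were not recovered. Limma on values per library and the likeness of genes to *Pln* over libraries could not be had without the columns. All 8 genes are named, then called members of the lists (at most 4 in a direction), *Runx1*, *Xist* and defining markers. Genes and lists were chosen with earlier results of these data known. Positions, transcript lengths and overlaps are from GENCODE M39, in which 18992 of 19079 gene identifiers were found. Alternatives were other filters, spread estimates, tests, scalings and pseudocounts, chromosomes X and Y left out, and the highest library left out.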

Additional observations from a re-analysis of the deposited data

How the results depend on the processing

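Of the 6 tested genes, 5 kept their direction under every alternative that had a test, and *Atp2b4* changed sign, to 0.011, when group means were rescaled to the same total. *Pln* missed the threshold in 10 of 11 alternatives, with an adjusted p between 0.0414 and 0.216. It passed, at 0.0414 by the moderated gamma model, only when the test was limited to 2414 genes averaging 1000 or more, an alternative chosen after seeing the data (log2 ratio -0.82). Adjusted p ranged from 0.3 to 0.593 for *Atp2a2*, 0.319 to 0.593 for *Atp2a3* and 0.334 to 0.614 for *Slc8a1*. Of 15172 genes tested, 281 were called, against 7 with the spread of each gene alone and 102 with spread moderated without a trend. With the filter of 1000, 51 of the 2414 genes tested were called. Why the count changed with the estimate of spread was not tested. Relative to the median cardiomyocyte marker, also chosen after seeing the data, the log2 ratios of *Pln*, *Atp2a2*, *Atp2a3*, *Atp2b1*, *Atp2b4* and *Slc8a1* were -0.49, -0.34, -0.27, 0.27, 0.30 and 0.72, which turned the sign of *Atp2b1* and *Atp2b4*. Without the highest library, if that was a control, *Atp2b1* was at 0.024 and *Atp2b4* at 0.074, which also turned their sign. The log2 ratio of *Sln*, 3.13, was 1.36 with a pseudocount of 10 and 2.27 without the highest library. That of *Atp2a1*, -1.79, was -1.23 and -0.34 with pseudocounts of 1 and 10 and -0.79 without the highest library. With means left as deposited, 241 genes were called, and 0 of the 6 tested genes.

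No paired analysis was possible because the names of the columns of values per library match no sample label, and for that reason leaving out each sample in turn was not done. With 2 controls, the spread within controls rests on 1 difference. At the level of *Sln*, *Atp2a1* and *Strit1*, depth limits the comparison, and the log2 ratio of a gene with a library at 0 carries no error here.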

Other observations

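*Jph1*, a junctophilin known mainly from skeletal muscle and named after its values were seen, averaged 315.3 normalized counts in *Runx1* OE ventricles and 203.3 in controls. Its log2 ratio was 0.63 (SE 0.13, adjusted p = 0.0529, moderated gamma model), which missed the threshold. Every *Runx1* OE library had to lie above both controls, where 2033 of the 15172 genes tested had groups apart in either direction. *Jph2*, the cardiac junctophilin, averaged 7228 normalized counts in *Runx1* OE and 7337 in controls (adjusted p = 0.968).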
